A study of Mus musculus with 6 samples.

Results

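Genes that encode histone-modifying enzymes, chromatin remodellers, DNA methylation enzymes and their partner subunits were examined for nearby binding of Ikaros, a lymphoid transcription factor made from Ikzf1, in mouse natural killer (NK) cells. They were the protein-coding genes named in the deposited Ikaros peak lists whose symbol begins with a family stem such as Kmt2, Kdm, Kat, Hdac, Setd, Chd, Smarc, Arid, Brd, Dnmt, Tet or Ncoa. The names numbered 37 of the 2145 protein-coding names in the lists, and they were attached to 44 regions of the 2526 formed by merging peaks that share at least 1 base. All 37 fit a chromatin family by name. Rbbp6 and Rbbp8 are better known for ubiquitin ligase and DNA repair functions, and Kansl1l is a paralogue of a histone acetyltransferase subunit.

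The series measured Ikaros by chromatin immunoprecipitation with sequencing (ChIP-seq) in 6 samples. Of these, 3 were wild type (WT) and 3 carried a conditional Ikzf1 knockout (KO) driven through NKp46, a receptor that marks NK cells. Splenic NK cells of both genotypes were expanded in culture with IL-15 at 50 ng/ml, fixed in 2% formaldehyde and precipitated with 2 µg of the same anti-Ikzf1 antibody. Everything below rests on the 3 WT peak lists, 1 per library, with 685, 2084 and 1342 peaks in replicates 1, 2 and 3. Knockout libraries were not analysed here, so binding was not compared with cells that lack Ikaros. Strain and age are not given in the labels, and no label ties a library to its own animal or culture, which means that differences between lists may be technical. Sequencing depth cannot be read from the lists, and peaks do not show gene activity, so the labelled cell type could not be checked against its markers.

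Chromatin is regulated by enzymes that write, erase and read chemical marks on histones and DNA, and by ATP-driven remodellers that slide or evict nucleosomes. Most of these enzymes work inside large complexes. In lymphocytes Ikaros is itself found with some of them, best known of all the NuRD complex, which joins the remodeller CHD4 (Mi-2beta) to histone deacetylases, and also with SWI/SNF remodellers and the SIN3 co-repressor. Ikaros binds DNA through zinc fingers that recognise a GGGAA core.

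Of the 144 protein-coding RefSeq genes whose symbol fits the name rule, 37 were named at a peak in any list (25.7%, 95% Clopper-Pearson interval 18.8 to 33.6), against 9.37% of all 21900 protein-coding RefSeq genes. A region in 2 or more lists was found for 18 of the 144 (12.5%, interval 7.58 to 19.0), against 4.37% of all genes, and one in all lists for 11 (7.64%, interval 3.87 to 13.3), against 2.0% of all genes (intervals cover counting error only). Among names that were listed at all, the chromatin genes recurred about as often as the rest: 18 of 37 had a region in 2 or more lists (48.6%), against 46.9%, and 11 of 37 had one in all lists (29.7%, interval 15.9 to 47.0), against 21.7%. Chromatin genes are long, with a median RefSeq span of 46.8 kb against 17.1 kb for all protein-coding genes, and their promoters are rich in G and C. The median G and C content of the 250 bases before a start site was 62.0% for family genes and 55.6% for all protein-coding genes. The part of gene span and base content in these shares was not tested.

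The 11 genes with a region in all lists were Kmt2a, Arid1a, Chd1, Kansl3, Hdac3, Chd1l, Kat7, Smarcd2, Setd5, Tet2 and Dnmt3a. The 7 in exactly 2 lists were Rbbp5, Chd6, Kansl1, Smarce1, Kdm4c, Kdm3a and Ncoa2. The regions of the other 19 were each in a single list. The entries for Chd1 and Hdac3 depend on gene models that differ from RefSeq, as described with those genes.

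For 5 of the genes in all lists, the shared region overlapped a RefSeq promoter window, 250 bases before to 50 after a start site. The 4 whose upstream bases lie outside the gene span are shown, so that the letters beside these start sites can be compared. In Kansl3 and Chd1l the peaks of every list covered a stretch of the printed bases, in Kmt2a all of them. In Kat7 only the wide peak of replicate 2 reached them, over 129 bases, and those of replicates 1 and 3 covered 0. The sequences are from RefSeq (GRCm38.p6), 5′ to 3′ on the gene's strand, cut at the end of the gene span. Capitals mark the Ikaros core GGGAA and the ETS factor motif CCGGAA, either as such or as the reverse complement when the motif is on the other strand.
Kmt2a, chr9:44881353-44881539, minus strand: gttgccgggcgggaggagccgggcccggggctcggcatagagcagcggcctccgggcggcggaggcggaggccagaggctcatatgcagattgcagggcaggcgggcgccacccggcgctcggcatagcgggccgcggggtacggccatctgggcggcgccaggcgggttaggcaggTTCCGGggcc
Kansl3, chr1:36369194-36369431, minus strand: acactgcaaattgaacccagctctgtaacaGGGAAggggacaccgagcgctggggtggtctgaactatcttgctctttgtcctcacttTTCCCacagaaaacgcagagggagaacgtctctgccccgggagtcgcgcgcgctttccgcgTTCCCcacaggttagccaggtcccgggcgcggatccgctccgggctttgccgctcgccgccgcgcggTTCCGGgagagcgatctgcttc
Chd1l, chr3:97610223-97610440, minus strand: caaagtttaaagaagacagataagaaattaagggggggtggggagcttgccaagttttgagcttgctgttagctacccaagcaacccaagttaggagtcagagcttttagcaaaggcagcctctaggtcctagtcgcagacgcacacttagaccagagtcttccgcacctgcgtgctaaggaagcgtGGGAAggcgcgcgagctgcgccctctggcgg
Kat7, chr11:95310247-95310496, minus strand: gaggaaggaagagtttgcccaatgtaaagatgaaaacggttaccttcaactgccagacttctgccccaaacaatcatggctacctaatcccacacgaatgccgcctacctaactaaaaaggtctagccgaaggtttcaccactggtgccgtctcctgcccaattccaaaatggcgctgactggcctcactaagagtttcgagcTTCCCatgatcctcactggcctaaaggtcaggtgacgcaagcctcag

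Motifs were searched on both strands in the 250 bases before the start site of the RefSeq promoter window, counted as negative positions from it. In Kmt2a and Kansl3 that start lies 63 and 12 bases inside the gene span. Peak distances for these genes were taken from the 5′ end of the span instead. GGGAA and CCGGAA share their last bases, so neighbouring letters decide which is called. Kansl3 held 3 copies of GGGAA, and peaks of all 3 lists covered the copies at -162 to -158 and -101 to -97 but not that at -220 to -216. Chd1l held 1 copy, at -63 to -59, under peaks of all 3 lists. The copy in Kat7, at -47 to -43, lay under the peak of replicate 2 only. In Kansl3, Chd1l and Kat7, 1 copy read TGGGAA, a longer form of the Ikaros site. Kmt2a, whose region ranked first among those of the chromatin genes in replicates 1 and 3, held 0 copies of GGGAA and 1 of CCGGAA, at -73 to -68, under peaks of all 3 lists.

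These letters are common. GGGAA occurred in 56.2% of all 32851 upstream windows of 250 bases, in 45.8% of the 153 windows of family genes and in 5 of the 12 windows of named genes that a region in 2 or more lists overlapped (41.7%). CCGGAA occurred in 12.0% of all windows, in 20.9% of family windows and in 4 of the same 12 (33.3%). TGANTCA, the AP-1 site, occurred in 6.75% of all windows and in 0 of the 12.

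Among the enzymes that methylate histones, Kmt2a (ENSMUSG00000002028) had the highest-ranked region. It encodes the H3K4 methyltransferase MLL1. The authors' fold enrichments were 9.97, 8.45 and 11.2 in replicates 1, 2 and 3, with −log10 q values of 17.9, 21.2 and 23.6. Its percentile, the rank of a peak's fold enrichment within its list with 100 the strongest, was above 93 in all 3 lists. Peaks of all lists crossed the start site, with a common stretch of 387 bp and midpoints within 23.0 bp of each other (chr9:44881262-44881712, mm10). Rbbp5, which encodes a core subunit of the KMT2 complexes, had a region at its start site in 2 lists, at fold enrichments of 6.28 (replicate 2) and 5.01 (replicate 3) and percentiles of 83.8 and 50.3 (chr1:132476906-132477433). The authors' gene column named Rbbp5 in replicate 3 and the transcript 6030442K20Rik at the replicate 2 peak.

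Setd5, a SET domain gene, had a weaker and wider region in all lists. Fold enrichments were 5.12, 4.35 and 4.54 in replicates 1, 2 and 3, at percentiles of 50.8, 36.0 and 33.7. This region (chr6:113076017-113077430) spans 1414 bp, and the gene column named Setd5 only in replicate 3. In its other lists the name given was Gt(ROSA)26Sor, the Rosa26 transcript that starts beside Setd5 and is a standard site for transgenes. The region can thus be read with either promoter.

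Genes of histone acetylation included the catalytic subunit Kat7 and 2 subunits of the NSL complex, which carries the acetyltransferase MOF. Kat7 (ENSMUSG00000038909), the enzyme of the HBO1 complexes that acetylate H3 and H4, had fold enrichments of 4.61, 6.24 and 6.57 in order of replicate. Its percentiles were 30.4, 83.3 and 83.1, so replicate 1 ranked it far lower than the others did. The narrow peaks of replicates 1 and 3, 207 and 224 bp wide, both lay inside the gene past the start site, and the 826 bp peak of replicate 2 ran back across the start (chr11:95309550-95310375).

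Kansl3 (ENSMUSG00000010453) had fold enrichments of 5.43, 7.88 and 5.63 and percentiles of 61.9, 92.1 and 66.7 in replicates 1, 2 and 3. Its peaks crossed the start site in all lists, with midpoints within 11.0 bp of each other and a common stretch of 251 bp (chr1:36369090-36369369). Kansl1 was in replicates 2 and 3 only, with fold enrichments of 3.69 and 5.56 and percentiles of 9.07 and 65.1. Its paralogue Kansl1l had a peak in replicate 2 only, at percentile 73.6 and 969 bp from a start site. Of the other acetyltransferase genes, Kat6a (MOZ) had a peak at 1 end of the gene in replicate 3 (percentile 46.8) and Kat2b (PCAF) had one in replicate 1 (percentile 5.11). The nuclear receptor coactivator Ncoa2 had a wide, weak region in replicates 2 and 3, with fold enrichments of 3.99 and 3.75 and percentiles of 21.3 and 5.74.

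Erasers of histone marks were mostly weak or seen once. Kdm3a, an H3K9 demethylase, had fold enrichments of 3.89 (replicate 1) and 4.61 (replicate 2) and was absent from the list of replicate 3. Kdm4c, a demethylase of H3K9 and H3K36, had 3.68 and 5.12 in replicates 2 and 3. Percentiles were 7.74 and 45.6 for Kdm3a and 9.02 and 54.4 for Kdm4c, so each was near the bottom of 1 list and near the middle of the other. Midpoints of both regions lay within 1 kb of a start site. Kdm2a had a peak in replicate 2 only, at percentile 41.7, and Kdm4d in replicate 3 only, at 18.3. By RefSeq the Kdm2a peak also overlaps 9430078G10Rik.

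Hdac3, the deacetylase of the NCoR complex, was named in replicate 1 only, 61 bp from the gene in the authors' column. That peak belongs to a region in all lists (chr18:37934956-37935795), with fold enrichments of 5.70, 5.55 and 5.40 and percentiles of 69.9, 72.7 and 61.8 in replicates 1, 2 and 3. The gene column named Diaph1, a formin, in replicates 2 and 3. By RefSeq the region overlaps Diaph1 and lies 1.18 kb from the nearer end of Hdac3, so its place among chromatin genes rests on the gene model. Hdac4 had 1 peak, in replicate 2 at percentile 73.8, deep in the gene and 116 kb from the listed start.

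SWI/SNF remodellers were represented by subunits of different kinds. Arid1a (ENSMUSG00000007880) encodes the DNA-binding subunit that defines the canonical BAF form. Of the regions in all lists, 1 in Arid1a had the steadiest fold enrichments, at 6.36, 6.37 and 6.42 in replicates 1, 2 and 3. Its percentiles were 82.3, 84.8 and 81.2. That region (chr4:133754273-133754674) lay inside the gene, 488 bp before an internal start site. A second Arid1a region, just upstream of the gene (chr4:133756796-133757773), was in replicates 2 and 3, with fold enrichments of 5.10 and 4.36 and percentiles of 61.4 and 27.4. Among chromatin genes, Arid1a alone had separate recurrent regions that all lay within 1 kb of its own start sites.

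Smarcd2, an accessory subunit known for its role in granulocytes, had a region in all lists (chr11:106272608-106273271). Fold enrichments were 5.16, 4.73 and 4.61 and percentiles 52.1, 50.0 and 35.8 in replicates 1, 2 and 3. Its midpoint lay 59 bp inside the 5′ end of the gene span, which also overlaps Tcam1. Smarce1, the HMG-box subunit BAF57, had fold enrichments of 3.81 (replicate 2) and 5.23 (replicate 3) and percentiles of 13.9 and 56.5. Arid1b, the paralogue of Arid1a, had 2 peaks in replicate 3 only, at percentiles 33.4 and 21.8, the first of them 85.7 kb outside the gene. The region inside Arid1a thus ranked above those of the other SWI/SNF genes in every list that held them.

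**Figure D1:**
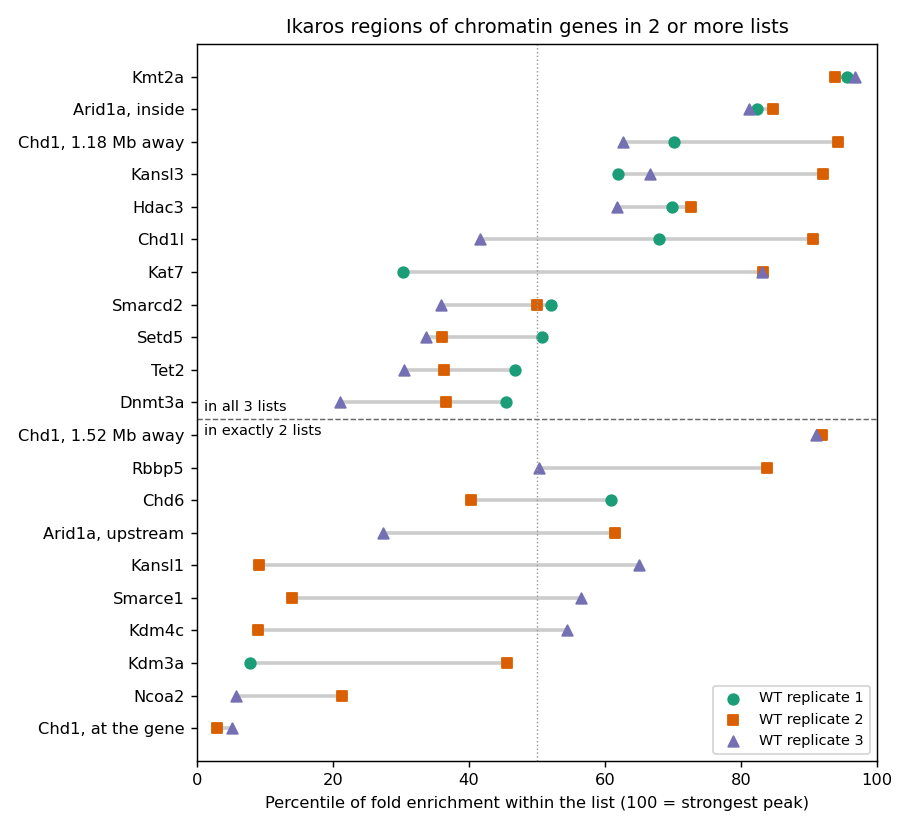
Percentile of fold enrichment within each list (x axis, 100 the strongest peak) for the 21 regions of chromatin genes found in 2 or more lists, with 1 symbol per WT replicate and grey lines joining the lists. Kmt2a and the Arid1a region inside the gene keep close values across lists, while Kat7 runs from 30.4 to 83.3, and the region at the Chd1 gene itself sits at 2.88 and 5.07.

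The CHD family of remodellers gave the largest group of names, and Chd1 shows how far the gene column can matter. Chd1 encodes a remodeller that binds H3K4 methylation in transcribed genes. It was named at 5 regions, but only 1 of them touched the RefSeq gene (chr17:15704967-15772612). That region (chr17:15704765-15705396) was among the weakest in replicates 2 and 3, with fold enrichments of 3.45 and 3.72 and percentiles of 2.88 and 5.07, and replicate 1 did not have it.

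The other 4 lay 1.18 to 1.52 Mb beyond the RefSeq end of Chd1 although the authors' distance was 0. The only one in all lists (chr17:16951404-16951683) had fold enrichments of 5.70, 8.57 and 5.46 and percentiles of 70.2, 94.3 and 62.7 in replicates 1, 2 and 3. Its rows also carried the gene BC002059. The strongest of the others, in replicates 2 and 3 (chr17:17294235-17294542), overlapped Gm6712 and had percentiles of 91.9 and 91.0. Without these distant regions, 10 chromatin genes had a region in all lists and Chd1 stayed among the 18 in 2 or more.

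Chd1l (ALC1), a remodeller recruited by poly(ADP-ribose), had a start site region in all lists (chr3:97609975-97610356). Its fold enrichments were 5.64, 7.41 and 4.77 and its percentiles 67.9, 90.6 and 41.7 in replicates 1, 2 and 3. By RefSeq the same bases also lie in the span of Fmo5. Chd6 had a region at its start site in replicates 1 and 2, with fold enrichments of 5.42 and 4.46 and percentiles of 60.9 and 40.3. The gene column gave Chd6 in replicate 2 and the antisense gene Gm45447 in replicate 1. Chd2, Chd7 and Chd8 each had 1 peak, in replicate 2, at percentiles 57.2, 25.5 and 8.69. Of these, Chd8 alone had its midpoint within 1 kb of a start site.

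NuRD, the complex most closely tied to Ikaros protein, had peaks at 5 of its 15 genes and 0 regions shared between lists, where 9.37% of all protein-coding genes were named in any list and 4.37% had a region in 2 or more. With so few genes, a count of 0 is near the overall share. Chd4 had a peak in replicate 2 only (chr6:125096965-125097171), with a fold enrichment of 4.18 at percentile 28.1, 905 bp inside the gene. Chd5 and Rbbp7 were also in replicate 2 only, at percentiles 21.5 and 79.1. The Rbbp7 peak lay 192 bp before the start site, and that of Chd5 was 23.8 kb inside the gene. Gatad2b had a peak on its start site in replicate 3 at percentile 15.9. Gatad2a was named in replicates 1 and 3, but at sites 1.37 and 35.7 kb from a start, with percentiles of 13.6 and 2.46. Both Gatad2a peaks and that of Gatad2b thus ranked low in their lists. No peak was named for Hdac1, Hdac2, Mta1, Mta2, Mta3, Mbd2, Mbd3, Chd3, Rbbp4 or Cdk2ap1.

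The DNA methylation genes Dnmt3a and Tet2 were both in all lists, at moderate strength. Dnmt3a, a de novo DNA methyltransferase, had fold enrichments of 4.98, 4.37 and 4.16 and percentiles of 45.4, 36.7 and 21.0 in replicates 1, 2 and 3. Its region (chr12:3807678-3808110) lay inside the gene, 734 bp past a start site. Tet2, which oxidises methylcytosine, had fold enrichments of 5.01, 4.36 and 4.45 and percentiles of 46.7, 36.3 and 30.4. Its region (chr3:133544369-133544885) lay 237 bp before a start site that is itself inside the gene span. Both genes ranked below the median of every list. Dnmt1, Dnmt3b, Tet1, Tet3 and Mbd1 to Mbd4 were not named at any peak.

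Brd2, which encodes a reader of acetylated histones, had a peak in replicate 2 only, at percentile 41.1 and 402 bp from a start site. By RefSeq that peak also overlaps H2-DMa. Rbbp6 had a peak in replicate 1 at percentile 13.3 and Rbbp8 one in replicate 2 at percentile 13.1.

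Regions of chromatin genes that recurred lay mostly at start sites. Of 21 in 2 or more lists, 18 had their midpoint within 1 kb of a start site (85.7%, interval 63.7 to 97.0), against 65.9% of 982 pairs of a region and any protein-coding name measured in the same way. Of the 18, 8 midpoints lay upstream and 7 downstream of the start, and 3 (Smarce1, Ncoa2 and Chd1) were measured from the nearer end of the gene because the table used gives no strand for them. The exceptions were Hdac3 and both distant Chd1 regions. Without the distant Chd1 regions, and with Hdac3 kept, the share was 94.7%. That removal was chosen after seeing the data and was not made among the 982 pairs, so 94.7% has no matching overall share. For regions in 1 list the share was 10 of 23 (43.5%, interval 23.2 to 65.5), against 58.0% of all pairs. Within single lists the share was 78.6%, 66.7% and 73.1% of peaks named for chromatin genes in replicates 1, 2 and 3 (mean 72.8%, SD 5.96, n = 3), and 65.1%, 58.6% and 68.2% for all protein-coding names. The chromatin genes had the higher share in each of the 3 lists, a difference that was not tested. These shares are not independent, since a region in several lists enters each of them. With every region counted once, the shares were close: 28 of 44 (63.6%) for chromatin genes and 1375 of 2238 pairs (61.4%) for all protein-coding names.

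**Figure D2:**
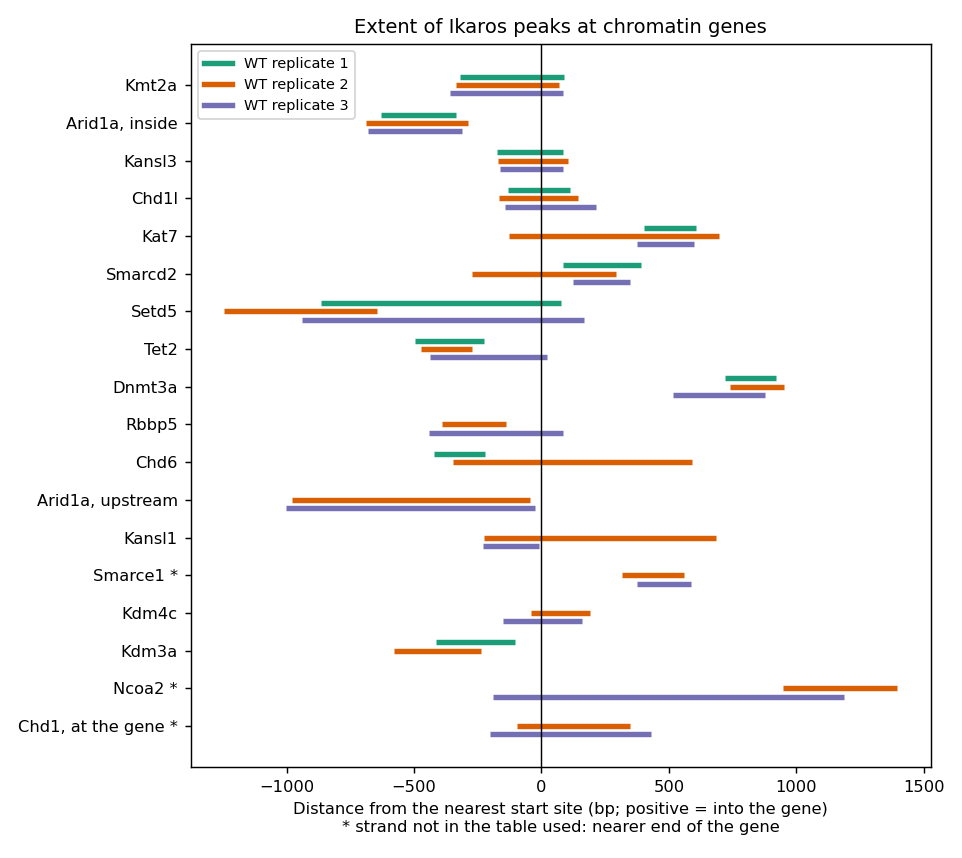
Extent of each peak (x axis, bp from the nearest start site, positive into the gene) for the 18 recurrent regions of chromatin genes within 1 kb of a start site, with 1 bar per WT replicate. Bars of Kmt2a, Kansl3 and Chd1l cross the start in all 3 lists, those of Dnmt3a lie inside the gene, and Setd5 and Ncoa2 have bars that differ widely in extent between lists.

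The spread of peak positions between lists varied widely from gene to gene. The midpoints of the peaks in a recurrent region of a chromatin gene spanned a median of 87.0 bp (range 3.5 to 672.5, 21 regions), against a median of 43.5 bp over all 1084 recurrent regions, and this difference was not tested. The widest spread belonged to Ncoa2 and Setd5, and the narrowest to the upstream Arid1a region.

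Strength was compared by rank within each list. The median percentile of their peaks was 49.4, 43.6 and 38.7 in replicates 1, 2 and 3, where 50 is the middle of all peaks. Their median fold enrichments were 5.08, 4.55 and 4.69, and those of all peaks were 5.10, 4.73 and 4.99. Both medians of the chromatin genes were thus below those of all peaks in each of the 3 lists, a difference that was not tested. A −log10 q of 5 or more was reached by 5 of 14, 12 of 30 and 9 of 26 of their peaks (35.7%, 40% and 34.6%), against 40.1%, 36.4% and 43.4% of all peaks. Kmt2a was the only gene of the group above the 95th percentile of a list by fold enrichment, in replicates 1 and 3. Regions in all lists had mean percentiles from 34.4 to 95.4 with a median of 66.7, and those in 1 list ran from 2.46 to 82.2 with a median of 25.5. Of the 23 regions in 1 list, 3 came from replicate 1, 12 from replicate 2 and 8 from replicate 3, in the order of the lengths of the lists.

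**Figure D3:**
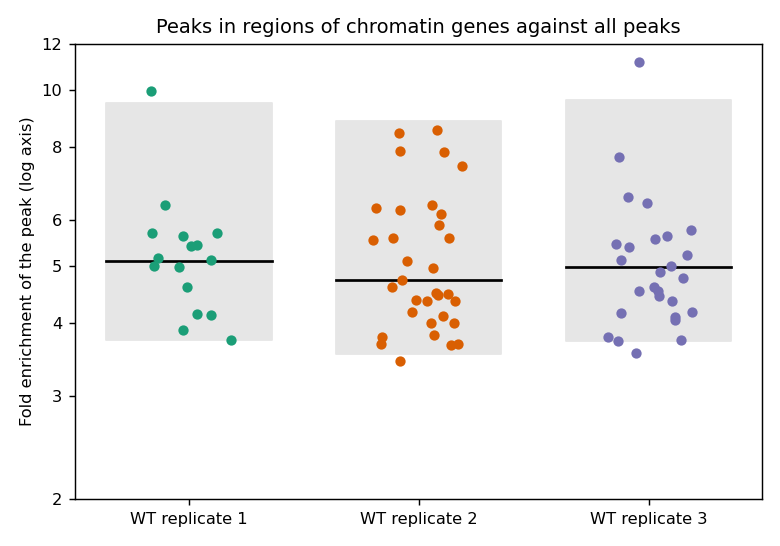
Fold enrichment of the strongest peak of each list (y axis, log scale) in the regions of chromatin genes, with 1 point per region and list. Grey bands span the 5th to 95th percentile of all peaks of the list and black lines their median, 5.10, 4.73 and 4.99. The highest points in replicates 1 and 3, at 9.97 and 11.2, are Kmt2a.

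Overlap between lists followed their lengths. Lists 1, 2 and 3 named 14, 26 and 21 chromatin genes, which were 2.25%, 1.48% and 1.68% of their protein-coding names. Replicates 2 and 3 shared 13 of these names, 50.0% of those in replicate 2 and 61.9% of those in replicate 3. For all protein-coding names the shares were 51.8% and 72.8%. Replicate 1 shared 10 with replicate 2 (71.4% of its own and 38.5% of those of replicate 2), against 85.5% and 30.3% for all names. It also shared 10 with replicate 3 (71.4% of its own and 47.6% of those of replicate 3), against 80.4% and 40% for all names. These counts compare names and not regions: Gatad2a was shared by replicates 1 and 3 through separate regions.

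The named genes were then set among the complexes they belong to, with 20 gene lists covering 320 genes, of which 193 do not carry one of the family stems. A region in 2 or more lists was found for 36 of the 320, and 21 had one in all lists. Among the genes without a family stem the counts were 18 and 10 of 193. Over all protein-coding genes the shares were 4.37% in 2 or more lists and 2.0% in all lists. SWI/SNF had 4 of 30 genes in 2 or more lists, the ISWI and other remodellers 4 of 25, and the sirtuin and HDAC list 4 of 16. NSL and MSL had 3 of 13 and INO80 and SRCAP 3 of 17. COMPASS (2 of 21), PRC2 (2 of 12), MOZ and HBO1 (2 of 12), SAGA and ATAC (2 of 24), TIP60 (2 of 17), KDM demethylases (2 of 22), other lysine methyltransferases (2 of 24) and DNA methylation (2 of 16) had 2 each. SIN3 (1 of 20), CoREST (1 of 12), NCoR and SMRT (1 of 6), BET and bromodomain proteins (1 of 15) and the coactivators (1 of 13) had 1 each. PRC1 had 0 of 22 and NuRD 0 of 15. The lists overlap, and 4.37% of all protein-coding genes passed the same criterion. Some counts depend on the gene model. With genes assigned by RefSeq spans, COMPASS had 4, NSL and MSL 4, MOZ and HBO1 3 and SIN3 2. The sirtuin and HDAC list then had 3 and NCoR and SMRT 0, and the counts of the other complexes were unchanged.

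**Figure D4:**
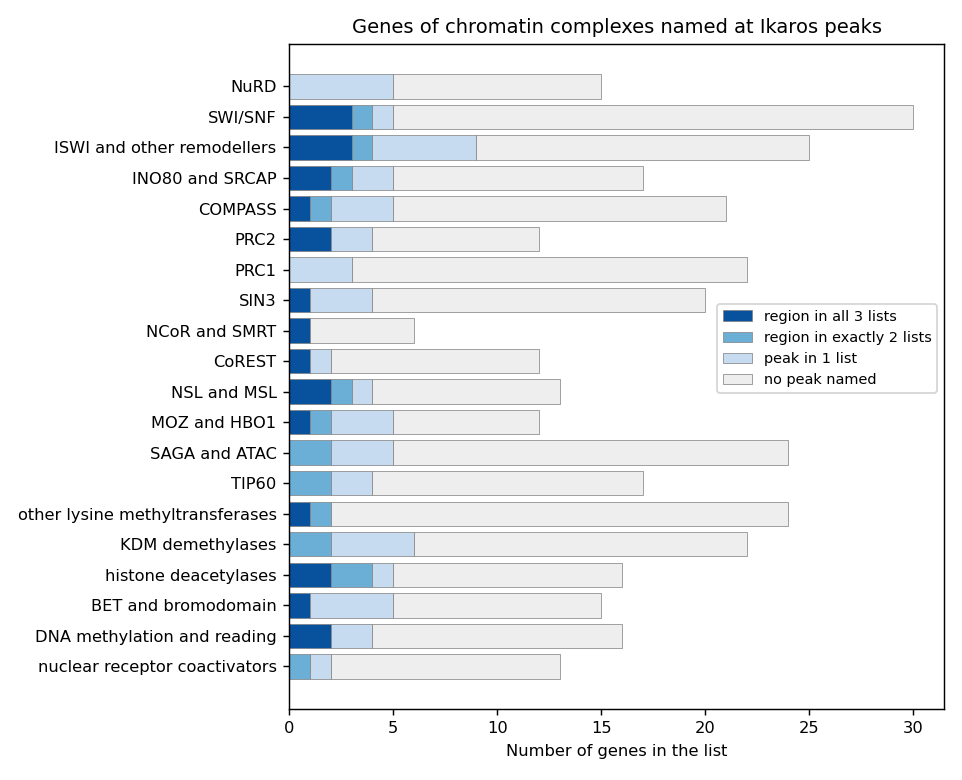
Number of genes in each complex list (x axis) by whether a region named for the gene was in all 3 lists, in exactly 2, in 1 or in none. NuRD and PRC1 have genes with a peak in 1 list, 5 and 3, but no gene with a region in 2 or more.

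Several partner subunits had regions as strong as the named families. Actr8, a subunit of INO80, had percentiles of 78.0, 97.0 and 95.8 in replicates 1, 2 and 3, and Phip, a bromodomain protein, 91.5, 91.5 and 92.6. Mcrs1, which sits in both the NSL and INO80 complexes, had fold enrichments of 5.21, 8.97 and 6.54 at percentiles of 54.2, 95.2 and 82.8, so with Kansl1 and Kansl3 the NSL complex had 3 genes with recurrent regions. Among the sirtuin deacetylases, Sirt1 had values of 4.52, 6.28 and 6.80 for fold enrichment in the 3 replicates, while Sirt6 and Sirt7 had regions in replicates 2 and 3 only. All 3 of these midpoints were within 64 bp of a start site.

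Others were weaker. Of the genes of Polycomb complex PRC2, Aebp2 was in all lists at percentiles of 44.2, 72.6 and 41.5, and Jarid2 was in all lists at the bottom of each, at 7.45, 6.33 and 2.01 and 138521 bp from a start site. The remaining names with a region in 2 or more lists were Bptf, Phf21a, Sap130 and Ss18l1, in all lists, and Atxn7, Dmap1, Dot1l, Jade1, Tfpt and Trrap, in 2. Bptf, a subunit of the NURF remodeller, differed most between lists, with percentiles of 75.2, 6.62 and 85.8.

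Gene names changed with the annotation. Using RefSeq spans, with the nearest gene within 50 kb where none overlapped, 40 family genes were assigned a region, which was in 2 or more lists for 19 and in all for 11, of which 17 and 9 were the same genes as by the authors' column. The shares over all protein-coding genes by this rule are not given here. Hdac3 dropped out and Chd1 fell to 2 lists. Kmt2c and Arid4a entered with regions in all lists, since the authors' rows there name only the transcripts 4831440E17Rik and 3110056K07Rik. Kmt2c, an enhancer H3K4 methyltransferase, had percentiles of 55.3, 58.2 and 35.2 at a region just outside its span (chr5:25499425-25499729). Arid4a, a subunit of SIN3 complexes, had percentiles of 18, 70.4 and 44.1 at a region on 1 end of the gene (chr12:71014989-71015782). Kmt2b and Brd8 entered with 1 peak each, in replicate 2. Of the 44 regions named for chromatin genes, 11 carried another gene name as well.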

How the data were processed

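ChIP-seq for Ikaros was described from 3 deposited peak lists, 1 per WT library. The tools in the submitters' processing notes are MACS2, Subread, SAMtools, Picard and edgeR 3.20.0, with the build mm10; the control, extension, q threshold and gene annotation are not given in the sources used here. Deposited values for each peak, per the file headers, are a fold enrichment (a linear ratio), −log10 values of p and q, a score, a width and a distance to a gene. Fold enrichments are the authors' own and served only to describe and rank peaks inside a list.

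Rows were reduced to peaks, overlapping peaks (by 1 base or more) were merged to regions, and a gene had a region in a list when a region carrying its name held a peak of that list. Start sites were those of the RefSeq promoter table and the 5′ end of the RefSeq span; for 10 of the 37 genes, which have no entry there, both ends of the span were used. Of 2145 protein-coding names, 2051 matched RefSeq (95.6%). Exons, introns and UTRs were not assigned. No significance test was run: counts and medians are given beside the same over all genes or peaks. Genes in 2 or more lists were named with every value and others by percentile, except 1 that is counted but not reported by name here. The genes and complex lists were chosen with earlier results of these data known. Merging was tested on simulated data. Alternatives covered peak thresholds, overlap, gene assignment, ranking and left-out replicates. Calculations ran in Python 3.11.15 with pandas 2.3.3, SciPy 1.17.1 and NumPy 2.4.6, and plots in matplotlib 3.10.9.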

Additional observations from a re-analysis of the deposited data

How the results depend on the processing

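No paired analysis was possible because every result comes from 1 group, WT. With depth unknown, absence from a list does not show absence of binding. The rule that each list's own peak must carry the name and the removal of distant Chd1 regions were chosen after seeing the data.

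Fewer regions remain by construction at a stricter threshold or in a shortened list. With a −log10 q of at least 5, 5 chromatin genes had a region in all lists and 7 in 2 or more. With at least 10 these counts were 1 (Kmt2a) and 2 (Kmt2a and Chd1), and with lists of equal length 7 and 7. In each of these settings Chd1 counted only through the distant regions. The region at the Chd1 gene itself had −log10 q values of only 1.19 and 1.73 in replicates 2 and 3. Without replicate 1, 2 or 3, the remaining pair had a shared region, and not only a shared name, for 15, 11 and 12 genes. Leaving out replicate 2 thus lowered the 18 in 2 or more lists to 11. Other settings gave 9 to 11 and 14 to 19 genes. The lowest were 9 and 14, where each list's own peak had to carry the name. Counts over all protein-coding genes at these settings are not given here, so they are not set against an overall share. The share near a start site was 66.7% within 500 bp, 90.5% within 2 or 5 kb, 71.4% at a −log10 q of 5 or more, 63.6% for regions in any list and 94.7% without the distant Chd1 regions. It was 81.8% for regions in all lists and 81.8% to 88.9% without 1 replicate. Ranking by −log10 p gave median percentiles of 46.1, 47.3 and 40.6 in replicates 1, 2 and 3. Of the 21 recurrent regions, 20 moved by less than their spread between lists. That spread comes from 2 or 3 values per region, with an SD of up to 39.6 (Kansl1), so it is a loose limit. The largest shift in mean percentile was 10.2 points.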
